A study of Homo sapiens with 24 samples.

Results

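The metallothioneins measured here were MT1A, MT1E, MT1F, MT1G, MT1H, MT1M, MT1X, MT2A and MT3. A probe was taken as a member when the RefSeq accession that the array gives for it belongs to 1 of these 9 genes, of 21743 genes named on the array. This found 11 of the 50599 probes of the array, with MT1E and MT1X holding 2 probes each. After a filter on dim signals, 10 member probes of 8 genes remained among 48316 probes, and MT1M did not pass. The isoforms are close in sequence, so each probe is described on its own, and how far a probe also binds the transcript of a related gene was not tested.

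LUHMES is a human mesencephalic cell line, conditionally immortalized by a tetracycline-controlled v-myc, that is differentiated into dopaminergic neurons and was grown here as 3D aggregates. Aggregates received 50 nM rotenone for 12 h, 50 nM rotenone for 24 h, 100 nM rotenone for 24 h, or DMSO, the vehicle, from day 7 of differentiation. Rotenone is an inhibitor of complex I of the mitochondrial respiratory chain. A group of each exposure was collected on day 8, which for the 24 h exposures was directly after the exposure. Another was collected on day 15, when the medium had been changed and the aggregates had been kept for 7 further days without rotenone. The labels do not give how the 12 h exposure was timed within these days. Its groups may therefore also differ from DMSO in age or time since exposure. All groups, DMSO included, were kept in differentiation medium with cAMP, GDNF and tetracycline, which shuts off v-myc. Each of the 8 groups had 3 samples with 1 array each, all from 1 cell line, and as nothing says that they came from separate cultures, the p values measure only the spread between these samples, which may be technical.

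Metallothioneins are small, cysteine-rich proteins that bind zinc and copper, buffer the free zinc of the cell and can trap toxic metals such as cadmium. The MT1 and MT2 genes lie in a cluster on human chromosome 16 and are switched on by zinc through the transcription factor MTF1, which binds short metal response elements in their promoters, and also by glucocorticoids and oxidative stress. MT3 is the isoform first described in brain as a growth inhibitory factor of neurites and responds little to metals. In brain, MT1 and MT2 are best known from astrocytes, MT3 from neurons and astrocytes.

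The promoters of MT2A, MT1H and MT1X are shown because the metal response elements of this family lie there. These were the 3 of 9 members with an entry in the promoter table, taken from RefSeq on GRCh38.p14. Each run is the 250 bases before the start of the gene on the plus strand, at chr16:56608334-56608583 for MT2A, chr16:56669564-56669813 for MT1H and chr16:56682220-56682469 for MT1X. Capitals mark matches on either strand to the core of the metal response element, searched as TGCACNC and TGCGCNC, where N is any base. No match overlapped another.
MT2A: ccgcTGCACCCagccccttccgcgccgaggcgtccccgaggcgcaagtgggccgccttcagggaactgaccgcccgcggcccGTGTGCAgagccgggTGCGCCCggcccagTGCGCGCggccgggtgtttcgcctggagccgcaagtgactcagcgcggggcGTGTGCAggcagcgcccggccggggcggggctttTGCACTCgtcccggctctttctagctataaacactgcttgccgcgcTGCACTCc
MT1H: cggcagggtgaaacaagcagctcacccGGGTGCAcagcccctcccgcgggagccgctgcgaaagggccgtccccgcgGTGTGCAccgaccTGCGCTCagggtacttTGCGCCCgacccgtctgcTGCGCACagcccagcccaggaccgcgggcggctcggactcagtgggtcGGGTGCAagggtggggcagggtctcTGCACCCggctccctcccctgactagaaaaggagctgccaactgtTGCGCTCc
MT1X: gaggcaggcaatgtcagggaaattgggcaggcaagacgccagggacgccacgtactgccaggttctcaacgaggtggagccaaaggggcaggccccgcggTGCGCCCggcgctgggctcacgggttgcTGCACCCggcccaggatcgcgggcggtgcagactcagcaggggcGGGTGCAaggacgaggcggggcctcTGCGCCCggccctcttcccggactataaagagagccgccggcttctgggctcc

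MT2A held 7 matches, MT1H 8 and MT1X 4. Of 35116 promoters cut to the same 250 bases, 24.8% held 1 match or more, 0.0228% held at least as many as MT2A, 0.0142% as many as MT1H and 0.208% as many as MT1X. The TATA box letters TATAAA, present on either strand in 10.7% of all promoters, occurred 1 time each in MT2A and MT1X and 0 times in MT1H. These matches describe the letters only. MT1H, with the most matches of these 3, had a signal near background on nearly all arrays.

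Signals are given as log2 of the background-corrected, quantile-normalized and batch-corrected intensity, and differences between groups as log2 fold changes. Levels of different probes are not compared. The arrays lay on 3 slides, 1 array of each group per slide, and the slide number is the replicate number. Slide 1, scanned on another day than the other slides, was brighter over its background: 67.3% to 82.4% of its spots were well above background, compared with a range of 53.6% to 60.8% for slide 2 and of 50.9% to 62.5% for slide 3. It was corrected as a batch. The study's methods correct a subset of arrays without naming them, and that this was slide 1 was taken from the scan times. The scan name of the day 15 DMSO array of replicate 1 gives 12 h and does not name DMSO, so that its group rests on its label, and results with day 15 DMSO are given without it where they move. The array of 100 nM for 24 h on day 15, replicate 3, stood farthest from its group, with an SD of 0.56 of its deviations over all probes, against 0.25 to 0.38 on the other arrays.

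The labelled cell type was checked against markers, each gene by its probe that was well above background on the most arrays. All 6 neuronal markers were well above background on all 24 arrays, as were 4 of 7 dopaminergic markers, TH among them, while SLC18A2 and ALDH1A1 were near background on most arrays. Of 7 astrocyte markers, 0 were well above background on all arrays, GFAP was so on at most 1 of the 24 arrays and SLC1A2 on 23. Of 3 oligodendrocyte markers with a probe, MBP and MOG were well above background on all 24 arrays and OLIG2 on 23. Other probes of MBP were so on only 12 and 2 arrays, and that of MOG on 7. Of 6 markers of progenitors and dividing cells NES, PAX6 and VIM were so on all arrays and SOX2 on 0, with other PAX6 probes on 22 and 1. Of 4 microglial markers with a probe, 0 were well above background on all arrays. The summed signal of the astrocyte probes, on the linear scale, was 196.7 to 239.2 in DMSO on day 8 and 194.3 to 217.7 in DMSO on day 15.

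Levels of the metallothioneins differed most between day 8 and day 15. Between DMSO on day 8 and DMSO on day 15, 7 of 10 member probes were called higher and 0 lower, which covers 6 genes: MT1A, MT1E, MT1F, MT1G, MT1X and MT2A. A probe was called at a fold change over 1.5 and a Benjamini-Hochberg adjusted p under 0.05 in limma. Of all probes tested, 4.44% were called higher in this comparison, and 8.51% in either direction. All 3 day 15 arrays lay above all 3 day 8 arrays for the same 7 member probes, as they did for 15.4% of all probes. The median log2 fold change of the member probes was 0.97, against a median near 0 over all probes. As RNA of whole aggregates was measured, more cells of a type and more RNA per cell cannot be told apart.

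**Figure D1:**
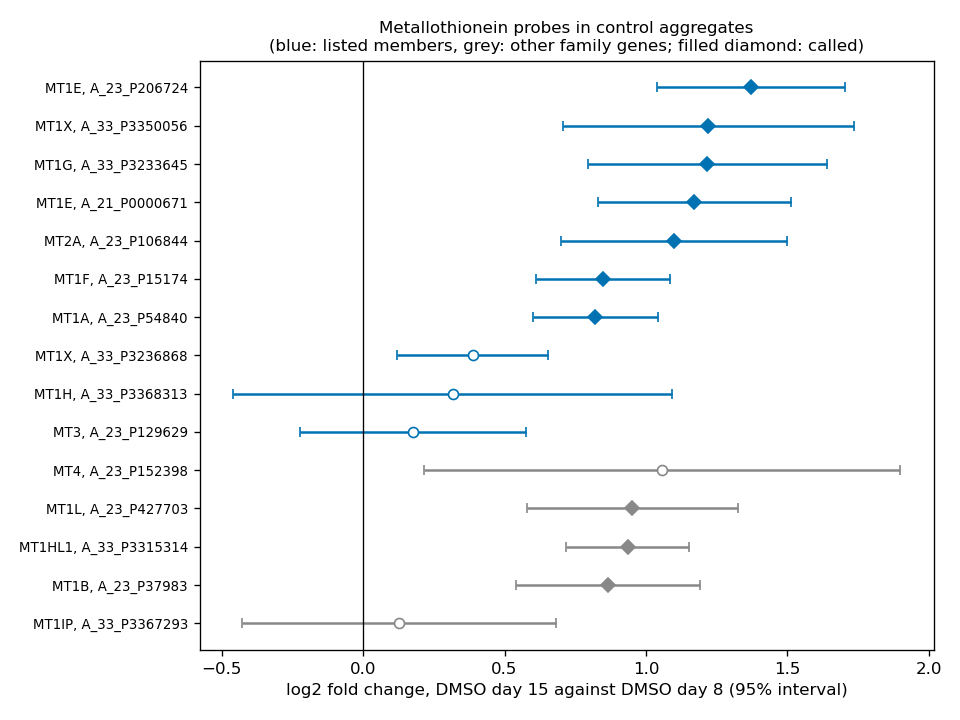
Log2 fold change of each metallothionein probe between DMSO on day 15 and DMSO on day 8, with its 95% interval, 3 arrays per group. Blue points are the listed members, grey points other genes of the family, and filled diamonds mark called probes: 7 called member probes lie between 0.82 and 1.37, while MT3 lies at 0.18.

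MT1E, a member of the metal-inducible MT1 group, had the largest log2 fold change of the called member probes. Its probe A_23_P206724 read 7.03, 6.99 and 7.12 in DMSO on day 8 and 8.32, 8.34 and 8.58 on day 15, a log2 fold change of 1.37 with an SE of 0.16 (adjusted p 5.71e-06, limma). Its other probe, A_21_P0000671, read 6.0, 6.42 and 6.14 on day 8 and 7.23, 7.41 and 7.44 on day 15, a log2 fold change of 1.17 with an SE of 0.16 (adjusted p 4.61e-05). With both probes every day 15 array lay above every day 8 array, and the groups did not overlap.

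MT2A, the most widely expressed and strongly inducible isoform, read 8.18, 8.38 and 8.45 in DMSO on day 8 and 9.24, 9.42 and 9.65 on day 15. The groups did not overlap, and the log2 fold change was 1.1 with an SE of 0.19 (adjusted p 0.000503, limma). MT1G, a further inducible isoform, read 5.58, 5.78 and 5.84 and then 6.88, 6.97 and 7.01, a log2 fold change of 1.22 with an SE of 0.20 (adjusted p 0.000327). Here, too, all day 15 arrays lay above all day 8 arrays.

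MT1A and MT1F, both of the MT1 group, had the smallest log2 fold changes of the called probes. MT1A read 11.89, 11.75 and 11.92 in DMSO on day 8 and 12.55, 12.77 and 12.71 on day 15, a log2 fold change of 0.82 with an SE of 0.10 (adjusted p 1.72e-05, limma). MT1F read 12.54, 12.78 and 12.64 and then 13.48, 13.60 and 13.42, a log2 fold change of 0.85 with an SE of 0.11 (adjusted p 2.96e-05). Neither gene overlapped between the days. Without the day 15 DMSO array of replicate 1, limma also called 7 member probes higher, with MT1A at 0.90 and MT2A at 1.22. Within the single slides, before batch correction, the called probes differed by 0.57 to 1.82, with MT2A at 1.06, 1.04 and 1.21.

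The 2 probes of MT1X, an isoform of the same cluster, did not give the same size of difference. Probe A_33_P3350056 read 9.93, 9.05 and 9.61 in DMSO on day 8 and 10.48, 10.83 and 10.94 on day 15, a log2 fold change of 1.22 with an SE of 0.24 (adjusted p 0.00198, limma). Probe A_33_P3236868 read 8.66, 8.31 and 8.18 and then 8.58, 8.87 and 8.86, a log2 fold change of 0.39 with an SE of 0.13 (adjusted p 0.054), and did not pass. On that probe day 15 replicate 1 lay below day 8 replicate 1, and the groups overlapped. Within slides 1, 2 and 3 the differences were 0.57, 1.82 and 1.34 for A_33_P3350056 and -0.11, 0.58 and 0.69 for A_33_P3236868. Without day 15 DMSO replicate 1 its value was 0.50 (adjusted p 0.0243), still under a 1.5-fold change. Without batch correction the call of A_33_P3350056 was lost (1.24, adjusted p 0.145).

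MT3, the brain isoform, did not pass. It read 8.71, 8.51 and 8.97 in DMSO on day 8 and 9.12, 8.68 and 8.92 on day 15. These groups overlapped, and the log2 fold change was 0.18, with a 95% interval from -0.22 to 0.58 (adjusted p 0.652, limma), an interval that lies below the estimates of the 7 called probes. MT1H and MT1M, inducible isoforms of the same cluster, stayed near background, and their fold changes are left out. MT1H was well above background on 2 of 24 arrays, both from rotenone groups on day 15, and read 3.35, 2.97 and 3.36 in DMSO on day 8 and 2.93, 4.26 and 3.43 on day 15. MT1M was well above background on 2 of 24 arrays, 1 of DMSO and 1 of 100 nM on day 15, and read 2.91, 2.98 and 3.57 and then 3.06, 3.51 and 1.40, with the groups overlapping for both genes.

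**Figure D2:**
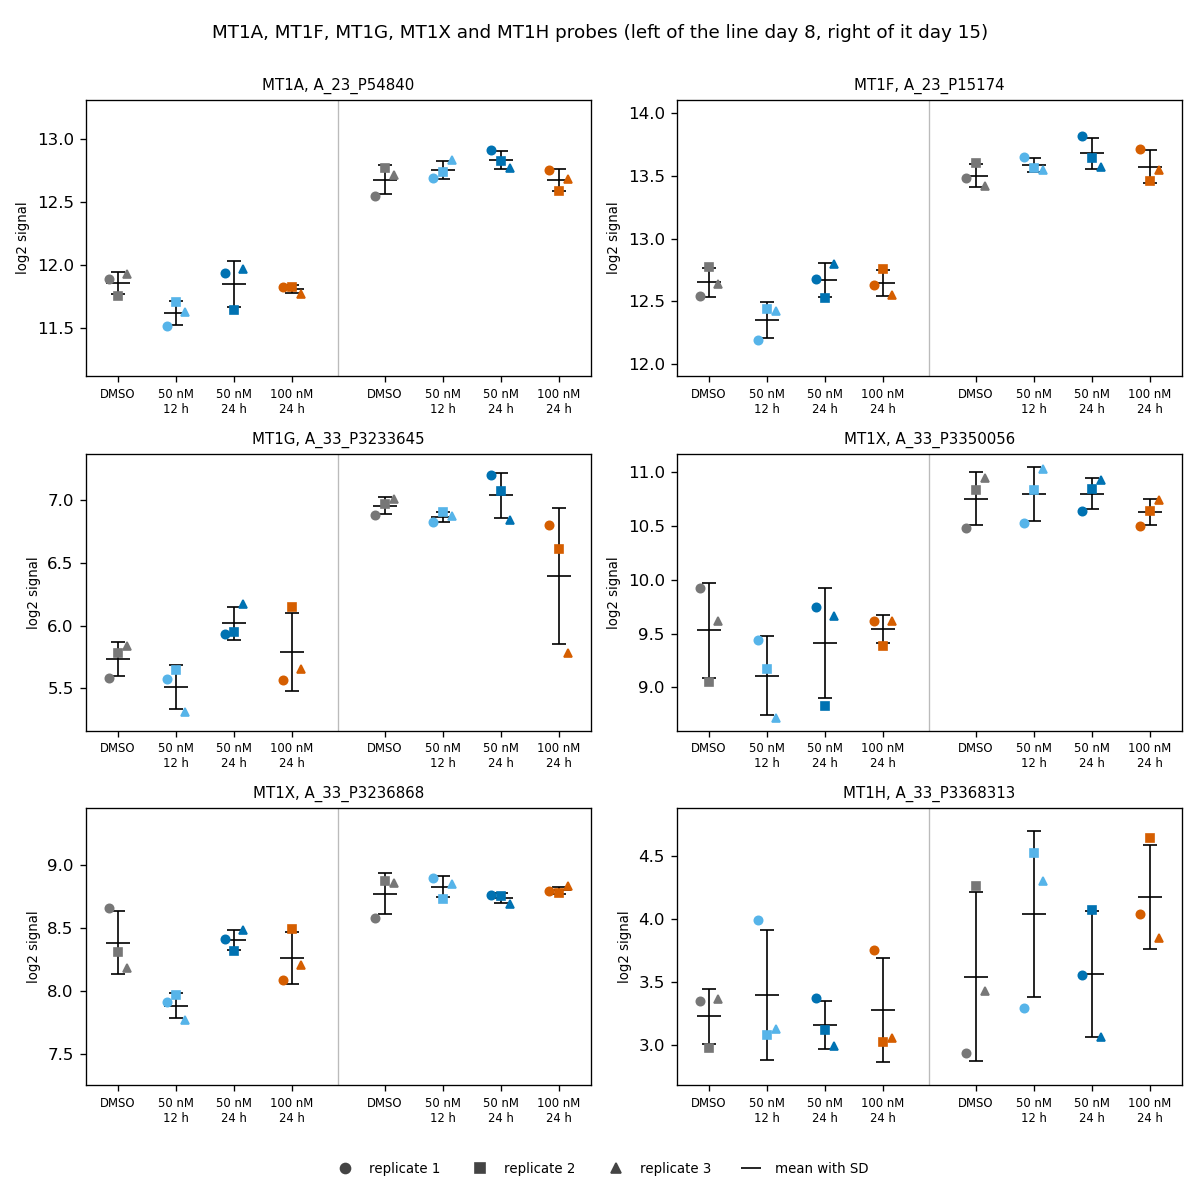
Log2 signal on each array for the probes of MT1A, MT1F, MT1G, MT1X and MT1H, with 8 groups along the horizontal axis, a symbol per replicate and the mean with SD in black, on vertical axes of different range. In MT1A, MT1F, MT1G and MT1X probe A_33_P3350056 the DMSO arrays of day 15 lie above those of day 8, and the day 15 array of 100 nM, replicate 3, reads 5.78 in MT1G.

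Other genes of the family were read in the same comparison. Of 6 further metallothionein genes with a probe, MT1B, MT1L and MT1HL1 were called higher, at 0.87, 0.95 and 0.93 (adjusted p 0.000702, 0.00106 and 3.54e-06, limma). MT1L is annotated as a transcribed pseudogene, and MT1HL1 is the family gene on chromosome 1 and not in the cluster. MT4, known from stratified epithelia, was well above background on 1 of the 3 day 15 arrays and on 0 of the 3 day 8 arrays, and did not pass (adjusted p 0.0981). MT1IP, a pseudogene, was at 0.13 (adjusted p 0.844), and MT1DP did not pass the filter. In RefSeq order along chromosome 16 the called genes MT2A, MT1L, MT1E, MT1A, MT1B, MT1F, MT1G and MT1X are interspersed with MT1M, MT1DP, MT1H and MT1IP, whose probes were near background or not called.

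These differences stood beside changes in markers of cell state. Between the DMSO groups VIM, of progenitors and glia, rose by 0.67 (adjusted p 0.00116, limma). MKI67, of dividing cells, was called lower with 1 of its 3 probes, which fell by 1.02. That probe was well above background on 3 DMSO arrays of day 8 and on 1 of day 15. The other MKI67 probes were so on at most 1 array of either group. TOP2A, also called lower, was well above background on 3 DMSO arrays of day 8 and on 0 of day 15. That list had 1 probe called higher and 2 lower of 11, with a median of -0.04. Its summed linear signal, to which the bright VIM probe adds most, was 18040 to 22220 on day 8 and 28860 to 33600 on day 15. TH, the rate-limiting enzyme of dopamine synthesis, fell with both probes, to log2 fold changes of -3.61 and -2.28 (adjusted p 1.82e-10 and 4.27e-05). The dopamine transporter SLC6A3 fell as well, at -2.26 and -1.87, and DDC, the decarboxylase of the same pathway, fell by 1.05, while NR4A2 and LMX1B, transcription factors of dopaminergic neurons, rose by 1.80 and 1.34 and by 1.45. Of the neuronal list 0 of 8 probes were called. Of the astrocyte list 0 of 9 probes in the fit were called. OLIG2, an oligodendrocyte lineage factor, fell by 4.0 (adjusted p 4.07e-11). The part of these shifts in the metallothionein differences was not tested.

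On day 8 the question was whether rotenone itself moved the metallothioneins. With 50 nM for 24 h, 1 of 10 member probes was called, MT2A, which rose by 0.81 on the log2 scale. Of all probes, 2% were called in this comparison and 0.948% were called higher, and the median of the member probes was 0.02 against -0.01 over all probes. With 50 nM for 12 h, 0 of 10 were called, against 1.37% of all probes, and 3, of MT1A, MT1F and MT1X, had an unadjusted p under 0.05. With 100 nM for 24 h, 0 of 10 were called, against 2.45% of all probes, and 2, of MT2A and MT1E, had an unadjusted p under 0.05. All 3 comparisons share the same DMSO arrays. Here and below, the share of all probes with an unadjusted p under 0.05 was not counted, so counts at that threshold lack a background.

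**Figure D3:**
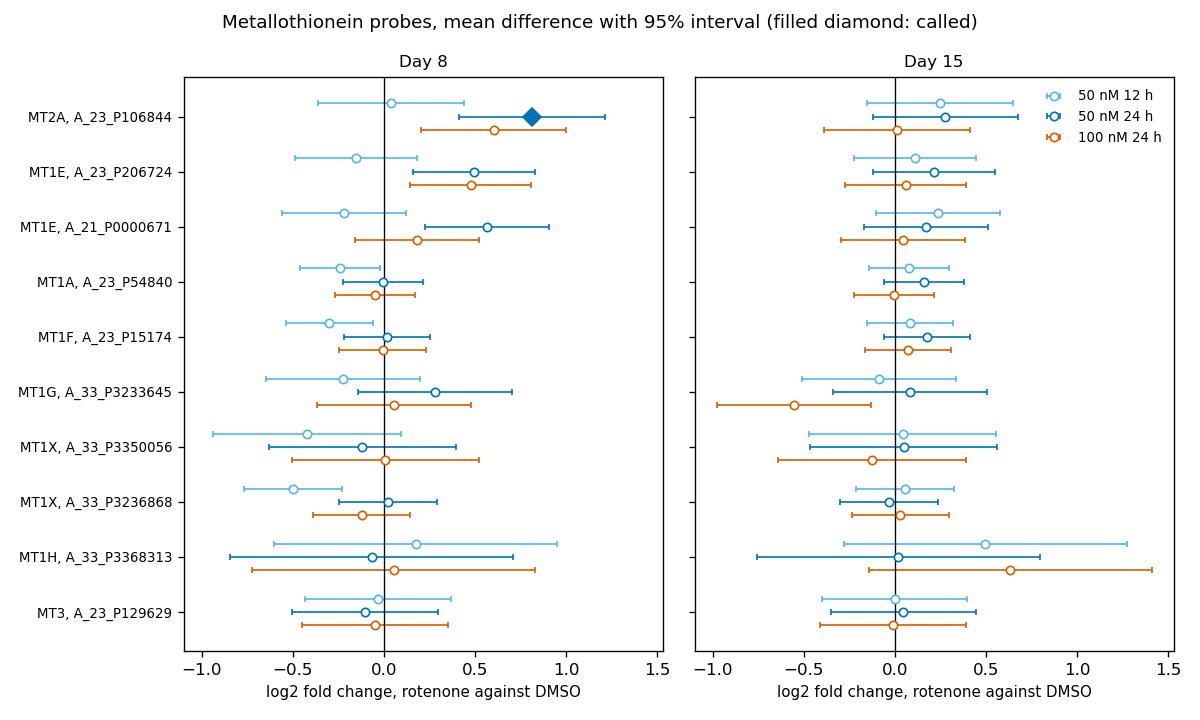
Log2 fold change of each member probe against DMSO of the same day, with its 95% interval, 3 arrays per group, on day 8 (left) and day 15 (right). The filled diamond marks the only called value, MT2A at 0.81 after 50 nM for 24 h on day 8.

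MT2A read 8.18, 8.38 and 8.45 in DMSO on day 8. It read 8.12, 8.34 and 8.67 after 12 h of 50 nM, 9.10, 8.98 and 9.37 after 24 h of 50 nM, and 9.04, 8.89 and 8.89 after 24 h of 100 nM. The arrays of both 24 h groups lay above all DMSO and all 12 h arrays, while the 12 h arrays overlapped DMSO. After 24 h of 50 nM the log2 fold change was 0.81 with an SE of 0.19 (adjusted p 0.0199, limma), and on the single slides it was 0.92, 0.58 and 0.93 before batch correction. After 24 h of 100 nM it was 0.60 with an SE of 0.19 (adjusted p 0.0888), and after 12 h it was 0.04 (adjusted p 0.989).

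The call of MT2A depended on single arrays. Without day 8 DMSO replicate 1 its adjusted p was 0.101, and without day 8 DMSO replicate 2 it was 0.0533. Without the 50 nM 24 h arrays of replicate 1 or replicate 3 it was 0.0525 and 0.105, respectively. The log2 fold change stayed between 0.70 and 0.90 whichever array of its 2 groups was left out. The call was also lost in 3 of 10 other settings of the probe fit. These were no batch correction (adjusted p 0.154), slides 2 and 3 alone (adjusted p 0.42) and only the compared arrays in the fit (adjusted p 0.102). A fit with the replicate number as a block kept it (adjusted p 0.01, limma). Probes averaged per gene (0.81, adjusted p 0.00939, limma) and the authors' deposited values (0.77, adjusted p 0.000569, limma) kept it too. Of the marker lists, 0 probes were called in this comparison. The summed linear signal of the neuronal markers was 163800 to 180400 after 24 h of 50 nM, below DMSO at 184100 to 209700, with a list median of -0.35, and that of the dopaminergic markers was 5828 to 8119, above DMSO at 5320 to 5793, with a list median of 0.12. The astrocyte sum, 190.9 to 249.2, overlapped DMSO, as did the sum of progenitor and dividing-cell markers, 20710 to 27220 against 18040 to 22220, with a list median of -0.08. After 100 nM, NES, of progenitors, rose by 0.63 (adjusted p 0.0452, limma), the only 1 of 11 probes of that list called. The list median there was -0.37, while its summed linear signal, 26130 to 29090, lay above DMSO. The part of these markers in the values of MT2A was not tested.

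**Figure D4:**
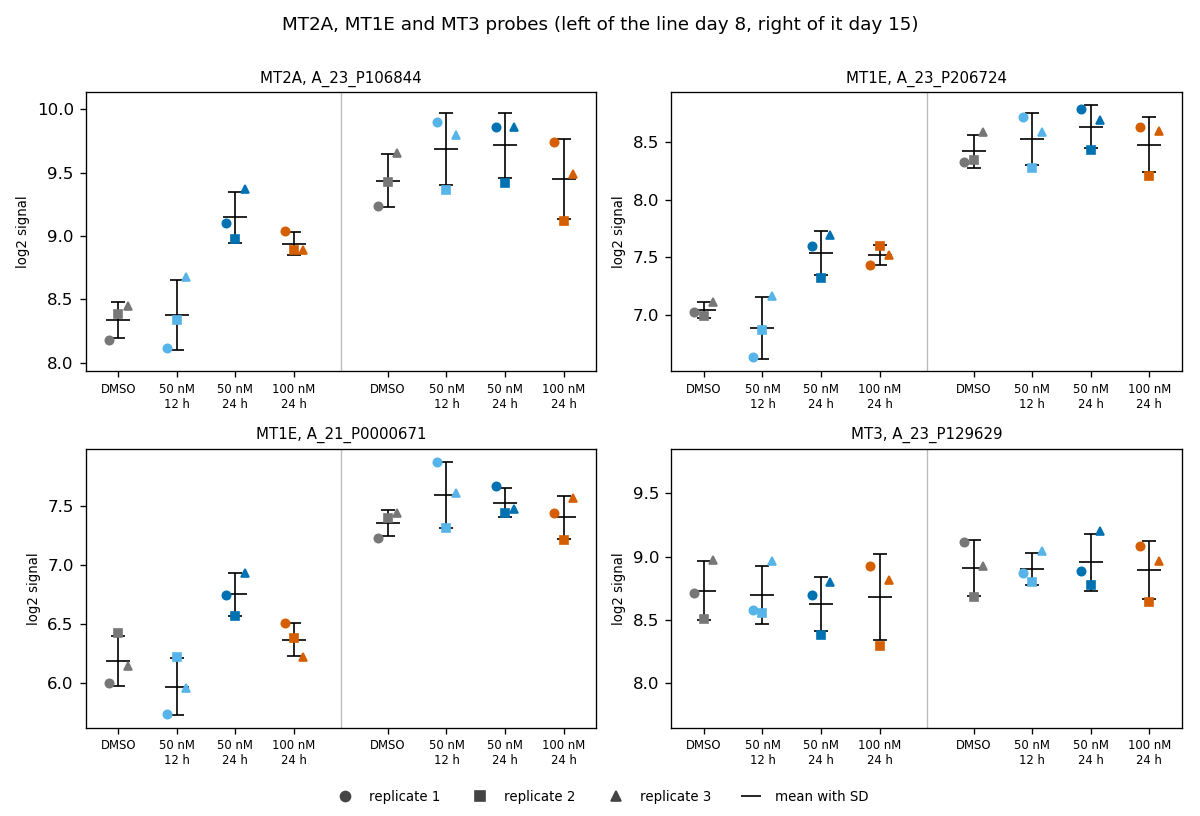
Log2 signal on each array for MT2A, the 2 probes of MT1E and MT3, with 8 groups along the horizontal axis, a symbol per replicate and the mean with SD in black, on vertical axes of different range. MT2A reads 8.18 to 8.45 in DMSO on day 8 and 8.98 to 9.37 after 24 h of 50 nM, while the group means of MT3 lie between 8.62 and 8.95.

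MT1E came next. Probe A_23_P206724 read 7.60, 7.33 and 7.70 after 24 h of 50 nM and 7.44, 7.60 and 7.53 after 24 h of 100 nM, all above the DMSO arrays at 6.99 to 7.12. It was at 0.50 and 0.48 on the log2 scale (adjusted p 0.108 and 0.114, limma), and neither passed. After 100 nM, it and MT2A were the 2 of 10 member probes with all arrays above DMSO, as were 10.4% of all probes. Probe A_21_P0000671 read 6.75, 6.57 and 6.94 after 24 h of 50 nM, above DMSO at 6.0 to 6.42, at 0.56 with an SE of 0.16 (adjusted p 0.0648). After 100 nM it read 6.51, 6.38 and 6.22, which overlapped DMSO, at 0.18 (adjusted p 0.762). After 12 h the values of the 2 probes were -0.15 and -0.22 (adjusted p 0.868 and 0.743).

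None of the other isoforms was called against DMSO after 24 h of either dose. After 24 h of 50 nM MT1A was at -0.01, with a 95% interval from -0.23 to 0.21, MT1F at 0.02, from -0.22 to 0.26, and MT3 at -0.10, from -0.50 to 0.29. MT1X was at -0.12 and 0.02 with its 2 probes and MT1G at 0.28, and all of these had an adjusted p of 0.675 or more in limma. The 3 arrays of MT1G lay above the DMSO arrays, at 5.93, 5.95 and 6.17. In all, 4 of 10 member probes had all 3 arrays above DMSO, 2 of them of MT1E, compared with 10.1% of all probes. The intervals of MT1A, MT1F and MT3 end below the estimate of MT2A, but the difference between genes was not tested.

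After 12 h of 50 nM, where age or time since exposure may also differ from DMSO, the lowest value was that of MT1X probe A_33_P3236868. It read 7.92, 7.97 and 7.77, against 8.66, 8.31 and 8.18 in DMSO, without overlap, and the differences within the slides were -0.76, -0.33 and -0.41. The log2 fold change was -0.50 with an SE of 0.13 (adjusted p 0.0431, limma), under a 1.5-fold change, so that the probe was not called. Without day 8 DMSO replicate 1 it was -0.33 (adjusted p 0.273), and with the replicate block the adjusted p was 0.0696. The other probe of MT1X overlapped DMSO, at 9.44, 9.17 and 8.72, with a value of -0.42 (adjusted p 0.59).

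MT1F and MT1A were the other member probes of the fit with all 12 h arrays below DMSO. Outside the fit, MT1M read 2.66, 2.48 and 1.63 against 2.91 to 3.57. With 0 arrays of either group well above background, these readings are not taken as a difference. MT1F read 12.19, 12.44 and 12.42, against 12.54 to 12.78 in DMSO, with a log2 fold change of -0.30 (adjusted p 0.242, limma). MT1A read 11.51, 11.70 and 11.62, against 11.75 to 11.92, with a log2 fold change of -0.24 (adjusted p 0.357). Neither passed the test, and here too the 12 h group may differ from DMSO in age or time since exposure. The median of the 10 member probes after 12 h was -0.22, and 3 of these 10 lay wholly below DMSO, against 10.2% of all probes.

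Time and dose were then compared directly on day 8, where the 12 h and 24 h groups may also differ in age or time since exposure. Between 12 h and 24 h of 50 nM, 0 of 10 member probes were called, against 0.11% of all probes, and 7 had an unadjusted p under 0.05. The median of the member probes was 0.41, against -0.01 over all probes. As 24 h minus 12 h, MT1E stood at 0.78 and 0.65 (adjusted p 0.0673 and 0.153, limma), MT2A at 0.77 (adjusted p 0.157) and MT1X probe A_33_P3236868 at 0.52 (adjusted p 0.152). Of the member probes, 6 had all 24 h arrays above all 12 h arrays, as had 7.33% of all probes. Within the single slides MT2A differed by 0.97, 0.63 and 0.69.

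Between 100 nM and 50 nM for 24 h, 0 of 10 member probes and 0% of all probes were called, and 1 member probe had an unadjusted p under 0.05. It was MT1E probe A_21_P0000671, at -0.38 with a 95% interval from -0.72 to -0.04 (adjusted p 1, limma), and all its 100 nM arrays lay below its 50 nM arrays, as for 4.69% of all probes. MT2A was at -0.21, with an interval from -0.61 to 0.19. The other MT1E probe was at -0.02, from -0.35 to 0.31. The test therefore separated no member probe between the doses, and differences within these intervals remain possible.

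Of the genes outside the list, MT1L and MT1B had all 3 arrays of 50 nM for 24 h above DMSO on day 8, without passing. The same held for 10.1% of all probes. After 100 nM all 3 arrays of MT1B also lay above DMSO, as for 10.4% of all probes, while MT1L overlapped it. MT1L was at 0.56 (adjusted p 0.106, limma) and MT1B at 0.43 (adjusted p 0.175) after 50 nM, and at 0.31 (adjusted p 0.491) and 0.45 (adjusted p 0.128) after 100 nM. MT1HL1 was at 0.04 after 50 nM for 24 h and at -0.26 (adjusted p 0.287) after 12 h, where its arrays lay below DMSO, as for 10.2% of all probes.

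After wash-out, on day 15, no member probe was called against DMSO after any exposure. After 12 h of 50 nM, 24 h of 50 nM and 24 h of 100 nM, limma called 0 of 10 member probes and 0% of all probes, and 0, 0 and 1 member probes had an unadjusted p under 0.05. The medians of the member probes were 0.08, 0.12 and 0.02. These comparisons share the day 15 DMSO arrays, including replicate 1. MT2A read 9.90, 9.36 and 9.79 after 12 h of 50 nM, 9.86, 9.42 and 9.86 after 24 h of 50 nM, and 9.74, 9.12 and 9.49 after 100 nM, all overlapping DMSO at 9.24 to 9.65. Its log2 fold changes were 0.25, 0.28 and 0.01, and 0.12, 0.15 and -0.11 without day 15 DMSO replicate 1.

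The other members likewise lay within or close to the range of DMSO. Over the 9 rotenone arrays of day 15 MT1A read 12.59 to 12.91, with DMSO at 12.55 to 12.77, and MT1F read 13.46 to 13.82, with DMSO at 13.42 to 13.60. MT1E probe A_23_P206724 read 8.20 to 8.79, with DMSO at 8.32 to 8.58, and MT3 read 8.64 to 9.20, with DMSO at 8.68 to 9.12. The probes of MT1X read 10.50 to 11.03 and 8.70 to 8.90, with DMSO at 10.48 to 10.94 and 8.58 to 8.87. MT1E probe A_21_P0000671 also stood apart in position after 24 h of 50 nM, at 7.67, 7.45 and 7.48. It lay above DMSO at 7.23 to 7.44 by 0.17 on the mean (adjusted p 1, limma). This made 1 of 10 member probes wholly above DMSO, as were 3.2% of all probes.

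MT1G was the member probe with an unadjusted p under 0.05 on day 15. It read 6.80, 6.61 and 5.78 after 100 nM, below DMSO at 6.88, 6.97 and 7.01, with a log2 fold change of -0.56 (adjusted p 0.698, limma), 1 of 10 member probes wholly below DMSO, as were 4.43% of all probes. The value rested on replicate 3, the array that stood farthest from its group, and without it was -0.25 (adjusted p 1). Against 50 nM for 24 h the value was -0.64 (adjusted p 0.895), and -0.33 without replicate 3. On day 15, limma called 0 of 10 member probes between 100 nM and 50 nM, with 1 at an unadjusted p under 0.05, and 0 between 24 h and 12 h, with 0 at such a p, beside 0% of all probes in both comparisons.

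Whether the change with rotenone differed between the days was tested as an interaction. Of 10 member probes, 0 were called for 12 h and 24 h of 50 nM and for 100 nM, against 0.339%, 0.648% and 0.989% of all probes, and 3, 0 and 2 had an unadjusted p under 0.05. Those of 12 h were MT1X probe A_33_P3236868 at -0.56, MT1F at -0.38 and MT1A at -0.32 (adjusted p 0.287, 0.493 and 0.582, limma), as day 8 minus day 15. Those of 100 nM were MT2A and MT1G, the latter at 0.61 (adjusted p 0.464), and at 0.30 (adjusted p 0.741) without 100 nM replicate 3 of day 15. For MT2A the day 8 change exceeded the day 15 change by 0.59 (SE 0.27, adjusted p 0.447, limma) after 100 nM and by 0.54 (adjusted p 0.586) after 50 nM for 24 h. Without day 15 DMSO replicate 1 these values were 0.72 (adjusted p 0.351) and 0.66 (adjusted p 0.416). The response of MT2A was thus not shown to differ between the days.

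Over the 8 groups the levels of MT2A ran in the order DMSO day 8, 50 nM 12 h day 8, 100 nM 24 h day 8, 50 nM 24 h day 8, DMSO day 15, 100 nM 24 h day 15, 50 nM 12 h day 15 and 50 nM 24 h day 15, with means from 8.34 to 9.71. Neighbours from 50 nM 12 h day 8 up to DMSO day 15 differed by more than the larger of their SDs, the other neighbours did not. In every member probe of the fit, MT3 and the dim MT1H included, the mean of each day 15 group lay above that of each day 8 group. The share of all probes with this order was not counted. In MT1E probe A_23_P206724 the largest step was from 50 nM 24 h day 8 to DMSO day 15, by 0.88. In MT1X probe A_33_P3350056 it was from 100 nM 24 h day 8 to 100 nM 24 h day 15, by 1.09. In MT3 no neighbouring groups differed by more than an SD, and its means ran from 8.62 to 8.95.

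Genes of zinc and copper handling were read as the pathway around the metallothioneins. Of 28 probes of 25 genes, namely MTF1 and the SLC30 exporters and SLC39 importers of zinc, 1 was called higher and 0 lower after 24 h of both doses on day 8. It was SLC39A4, a zinc importer of the cell surface, which rose by 0.64 after 50 nM and by 0.61 after 100 nM (adjusted p 0.00201 and 0.00232, limma). After 12 h, 0 were called. The medians of the list in these comparisons were 0.00, -0.03 and -0.04, in this order, close to those of all probes. The factor MTF1 and its target SLC30A1, a zinc exporter, were not called in any comparison. Between the DMSO groups SLC30A3, the exporter that loads synaptic vesicles with zinc, rose by 1.31, while SLC39A1 and SLC39A5 fell by 0.74 and 1.70. The list had 1 probe higher and 2 lower there, with a median of -0.08. On day 15, 0 of the 28 probes were called after any exposure.

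Of 18 probes of 12 copper handling genes, COX19, a factor of cytochrome c oxidase assembly, fell by 0.62, 0.75 and 0.77 on day 8 after 12 h of 50 nM, 24 h of 50 nM and 24 h of 100 nM (adjusted p 0.0025, 0.00038 and 0.000186, limma). COX17, the copper chaperone of the same enzyme, rose by 0.60 after 50 nM for 24 h (adjusted p 0.00194). Between the DMSO groups CCS, the copper chaperone of superoxide dismutase, fell by 0.82, and the copper importer SLC31A1 fell by 0.68 and 0.62 with its 2 probes. Apart from these, 0 of the 18 probes were called in the same comparisons, and the list medians lay between -0.03 and 0.02. On day 15, 0 of the 18 probes were called against DMSO. For COX17 and COX19 the interaction with day passed after both 24 h exposures, with COX19 at -0.70 and -0.76 and COX17 at 0.80 and 0.62 (day 8 minus day 15).

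A list of genes of metal and proteotoxic stress had 11 probes of 10 genes. HMOX1, the inducible heme oxygenase, rose by 1.09 after 50 nM for 24 h (adjusted p 0.0153, limma), the same comparison in which MT2A was called, and was not called after 12 h or 100 nM. HSPA1B, an inducible heat shock protein nearly identical to HSPA1A, so that its probe may bind both, fell by 0.93 after 12 h (adjusted p 0.000206). SLC7A11, the cystine transporter, rose by 0.96 between the DMSO groups (adjusted p 0.000708). The medians of this list were -0.12, -0.21 and -0.12 after 12 h and 24 h of 50 nM and after 100 nM on day 8, and 0.12 between the DMSO groups, with 1 probe called lower, 1 higher, 0 and 1 higher.

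Among 11 probes of 8 genes of the glucocorticoid response, SGK1 fell by 0.74 after 50 nM for 24 h and by 0.97 after 100 nM on day 8 (adjusted p 0.00354 and 0.000276, limma). KLF9 rose by 0.98 between the DMSO groups (adjusted p 2.31e-06), and the receptor NR3C1 fell by 0.92 with both its probes. FKBP5, TSC22D3, PER1, ZBTB16 and DUSP1 were not called in any comparison. The genes that moved went in different directions, with a list median of -0.37 between the DMSO groups.

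The genes whose signal ran most like that of a metallothionein over the 24 arrays were taken from 16955 probes outside the family that were well above background on all of them. All correlations share the 24 arrays, with their groups and slides, and are a description. For MT2A they were RNF213, BLVRB, PLAAT3, NUDT2 and CAST, with Pearson r from 0.91 to 0.94, while within the family MT1L reached 0.96 and MT1E 0.95. For MT1X probe A_33_P3350056 they were MGST3, TNNT1, APOL2, KCTD19 and SLC25A4, with r from 0.94 to 0.96. For MT3 they were KRTAP3-3, WASHC2C, B3GNT7, ELFN1 and CDKN2A, with r from 0.85 to 0.90. With MT2A, MT3 had an r of 0.54 and MT1X probe A_33_P3350056 of 0.76. Within groups, after subtraction of the group means, the r of MT2A was 0.90 with MT1E probe A_23_P206724 and 0.55 with MT3. It was 0.46 with MT1A and -0.11 with MT1X probe A_33_P3350056.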

How the data were processed

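RNA of 24 samples in 8 groups, taken from the labels, was measured on 24 single-colour Agilent arrays. The authors deposited the spot intensity of each array as written by Feature Extraction (version 11.5.1.1 on slides 1 and 3, 12.0.0.7 on slide 2), with its local background and its flags. The authors' own normalized log2 values were also deposited, with 7 of the 9 members among them.

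Following the study's methods, background was removed from the median intensity by normexp with an offset of 0 (limma 3.58.1, R 4.3.3), followed by quantile normalization. The values were then corrected for slide 1 with a ComBat written out for this purpose, with the groups as covariates, which can leave p values too small. The methods give another processing time and washing procedure for the arrays corrected there, without naming them. Probes brighter than 1.1 times the 95th percentile of 308 negative controls on at least 3 arrays were kept, and flagged values were dropped (0 for members). No member was saturated. Tables were read with data.table (version 1.17.8). Each probe was fitted over all arrays together (residual degrees of freedom 16, prior 2.49), and p values were adjusted over 48316 probes. Limma p values are two-sided. The methods also call genes at an unadjusted p under 0.01, a threshold used here only as an alternative. The procedure was tested on simulated data. The number of arrays limits the precision.

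Probes were named through RefSeq accessions (GRCh38.p14), which named 30275 of 50599 probes. The text names all member probes, other metallothioneins, called genes of 4 pathway lists and of cell type markers, and the 5 genes outside the family most like MT2A, MT1X and MT3. The members and lists were chosen with earlier results of these data known.

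Arrays that share a replicate number were alike before batch correction. After subtraction of group means they had correlations from 0.17 upwards (median 0.44, 84 pairs). The median was -0.36 for the 168 pairs that do not share a number, where subtracting the mean of 3 arrays itself pushes correlations below 0. The number is the slide, as the labels and scan names give it, so that a pairing of samples and an effect of slide cannot be told apart. Alternatives covered background correction, scaling, batch, filter, samples in the fit, averaging per gene, flags, the authors' values and each array left out. Figures were drawn with matplotlib 3.10.9 (Python 3.11.15).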

Additional observations from a re-analysis of the deposited data

How the results depend on the processing

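Of the counts of called member probes, that of DMSO on day 15 against day 8 (7) stayed between 6 and 7, and the counts of the rotenone comparisons on day 15, of the doses on day 8 and of the interactions stayed at 0. For 50 nM 24 h against DMSO on day 8 (1 called) the count was 3 with the Feature Extraction processed signal, MT2A and both MT1E probes, and 0 without batch correction, with slides 2 and 3 only and with only the compared arrays in the fit. With single arrays left out it ranged from 0 to 1, at 0 without day 8 DMSO replicate 1 and without 50 nM 24 h replicates 1 or 3, and without day 8 DMSO replicate 2 the called probe was MT1E A_21_P0000671 in place of MT2A. For 24 h against 12 h of 50 nM on day 8 (0 called) it was 1 with the processed signal, with an offset of 50, with the filter on spots well above background, with probes averaged per gene and with the authors' values. For 100 nM 24 h on day 8 (0 called) it was 1, MT2A, with that filter and with probes averaged per gene. For 50 nM 12 h on day 8 it ranged from 0 to 1 with arrays left out, at 1 without day 8 DMSO replicate 3 (MT1X A_33_P3236868, -0.62).

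The fit with the replicate number as a block, in place of ComBat, gave the same number of calls in every comparison, with MT2A at 0.81 (adjusted p 0.01) after 50 nM for 24 h. MT1G between the DMSO groups was lost with slides 2 and 3 only (1.18, adjusted p 0.0501). No called value changed direction. The median of all probes, near 0 in the fit reported, was 0.30 between the DMSO groups with the processed signal, and with 75th percentile scaling it was 0.15 after 100 nM on day 15, so that values under these settings are relative to those medians. Normexp on the mean signal was not run. Signal over background limits MT1H and MT1M, which were not well above background on any array of 6 of the 8 groups.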
